A study of Mus musculus with 6 samples.

Results

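The messenger RNAs described here are those that lay to the same side of the floxed controls in the pancreatic islets of both Trsp knockout lines. They were chosen by the measured values themselves: a gene is a member where all 4 knockout arrays read above both control arrays, or all 4 below. Of 32494 genes with a usable probe, 16104 were well above background on all 6 arrays, and 8110 of these were members (50.4%), 3750 of them higher in both lines (23.3% of genes measured) and 4360 lower (27.1%). Because this contrast chose the members, its differences are a description and carry no test. The difference between the 2 knockout lines was tested over all genes measured. The rule used the same knockout arrays, so membership is not independent of that difference. Of the members 32.4% passed this test, against 55.6% of the genes not shared.

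Total islet RNA was read on 1-colour arrays, 2 for each of 3 groups, taken from ICR mice labelled as males aged 16 weeks. The control group TrspFF carried Trsp alleles flanked by loxP sites (Trsp Flox/Flox) and no Cre. Trsp-RIPKO mice carried the same alleles with Cre under a rat insulin promoter (RIP-Cre), a driver also known to act in some neurons, and Trsp-Ins1KO mice carried them with Ins1-Cre. All 3 groups shared the floxed alleles, and none carried Cre alone, so Cre itself and loss of Trsp cannot be told apart. Both drivers act in beta cells, whereas islets also hold alpha, delta and other cells in which Trsp should be intact. In such bulk samples fewer cells of a type and less RNA per cell cannot be told apart. The labels do not state whether a group's 2 arrays hold RNA of different mice, so any p-value measures array-to-array spread that may be technical.

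Trsp encodes the transfer RNA that places selenocysteine at UGA codons, and without it selenoproteins cannot be completed. The family includes glutathione peroxidases and thioredoxin reductases, which remove peroxides and keep protein thiols reduced, and several proteins of the endoplasmic reticulum. When selenocysteine is short the UGA codon reads as a stop, and some selenoprotein mRNAs, Gpx1 among them, are then known to be degraded by nonsense-mediated decay. Cells answer oxidants through NRF2, a factor that drives glutathione and detoxification genes, and answer restrained translation through the integrated stress response, in which ATF4 binds C/EBP-ATF response elements.

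The promoters of 4 stress response genes are shown because they were higher in both lines and hold such an element, and those of 2 metallothionein genes because these were among the members lowest in both lines. Sequences are RefSeq's for GRCm38.p6, each running 5′ to 3′ on the gene's strand from 250 bases before to 50 bases after the annotated start. They lie at chr2:152344011-152344310 (minus strand) for Trib3, chr2:119350992-119351291 (plus) for Chac1, chr6:7693160-7693459 (minus) for Asns, chr7:126625421-126625720 (minus) for Nupr1, chr8:94178839-94179138 (plus) for Mt1 and chr8:94172368-94172667 (plus) for Mt2. Capitals mark the element TGATGNAAN in the stress response genes and the metal response core TGCACNC or TGCGCNC in the metallothioneins, on either strand.
Trib3: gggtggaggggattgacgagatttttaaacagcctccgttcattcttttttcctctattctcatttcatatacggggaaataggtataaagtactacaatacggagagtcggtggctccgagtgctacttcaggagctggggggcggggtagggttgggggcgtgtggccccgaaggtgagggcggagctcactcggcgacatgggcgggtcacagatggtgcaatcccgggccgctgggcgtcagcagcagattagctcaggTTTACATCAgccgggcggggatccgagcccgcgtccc
Chac1: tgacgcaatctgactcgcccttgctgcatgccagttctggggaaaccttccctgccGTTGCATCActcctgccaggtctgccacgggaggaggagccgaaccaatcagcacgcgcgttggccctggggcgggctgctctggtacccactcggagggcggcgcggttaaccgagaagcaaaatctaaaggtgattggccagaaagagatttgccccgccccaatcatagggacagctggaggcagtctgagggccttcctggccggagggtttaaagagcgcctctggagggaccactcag
Asns: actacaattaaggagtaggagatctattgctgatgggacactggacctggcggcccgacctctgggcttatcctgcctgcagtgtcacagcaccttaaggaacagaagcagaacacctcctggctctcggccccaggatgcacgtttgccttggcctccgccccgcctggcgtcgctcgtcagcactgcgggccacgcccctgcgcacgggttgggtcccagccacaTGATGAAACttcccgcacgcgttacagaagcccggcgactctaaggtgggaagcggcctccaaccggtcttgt
Nupr1: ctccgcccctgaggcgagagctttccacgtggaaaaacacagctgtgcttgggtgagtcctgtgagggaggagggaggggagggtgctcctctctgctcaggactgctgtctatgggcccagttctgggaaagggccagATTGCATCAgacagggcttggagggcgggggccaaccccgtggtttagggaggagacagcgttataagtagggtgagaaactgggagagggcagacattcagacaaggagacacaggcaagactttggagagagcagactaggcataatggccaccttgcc
Mt1: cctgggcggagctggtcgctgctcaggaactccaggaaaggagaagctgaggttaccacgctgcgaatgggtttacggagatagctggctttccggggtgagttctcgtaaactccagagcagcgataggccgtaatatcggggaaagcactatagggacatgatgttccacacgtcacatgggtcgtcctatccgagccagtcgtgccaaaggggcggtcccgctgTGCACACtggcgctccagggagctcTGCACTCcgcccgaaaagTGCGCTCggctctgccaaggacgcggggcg
Mt2: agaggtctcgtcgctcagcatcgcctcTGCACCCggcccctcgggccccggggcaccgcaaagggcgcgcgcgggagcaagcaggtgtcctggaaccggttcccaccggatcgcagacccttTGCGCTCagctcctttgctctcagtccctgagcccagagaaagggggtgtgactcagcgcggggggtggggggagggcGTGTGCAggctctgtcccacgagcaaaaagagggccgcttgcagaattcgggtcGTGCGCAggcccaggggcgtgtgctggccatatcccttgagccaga

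TGATGNAAN stood in 6 of the 16 stress response genes that were higher in both lines and had a promoter in the table (37.5%): the 4 shown, Pck2 and Vldlr. It stood in 1 of 11 other measured genes of that list (Herpud1), in 2.7% of the promoters of 9369 measured genes, in 3.15% of those higher in both lines and in 2.13% of those lower in both. An antioxidant response core, TGACNNNGC, stood in 3 of 12 NRF2 pathway genes higher in both lines (25%), Maff, Pgd and Me1, against 16.9% of measured genes. The metal response core, which was added after values had been seen, stood in all 3 measured metallothionein genes, but also in 40.8% of measured genes. Each motif was searched on both strands and apart from the others, so that 1 promoter may hold several. A match is only a match of letters and does not show that a factor binds there.

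The 75th percentile of processed intensity, on which values were scaled, ranged from 203.0 to 247.2 over the TrspFF and Trsp-RIPKO arrays but was 121.9 and 110.7 on the Trsp-Ins1KO arrays, with 51.4 to 61.0% of probes well above background. TrspFF and Trsp-Ins1KO shared slide 1 and Trsp-RIPKO alone filled slide 2, so that in Trsp-RIPKO slide and genotype cannot be told apart. The same holds for every test between the 2 knockout lines. Every Trsp-Ins1KO difference from TrspFF given here is a within-slide value. The extraction status recorded by the scanner software was 1 on both Trsp-RIPKO arrays and 0 on all others. Whether it bears on the results was not tested. The arrays held no probe that could be matched to Trsp, so the labels were not checked on the deleted gene. Against the label of males, Xist, the transcript of X inactivation in females, was well above background on both TrspFF arrays (-0.56 and -0.32) and both Trsp-RIPKO arrays (1.05 and 1.34) and on neither Trsp-Ins1KO array, while the Y-linked Ddx3y and Eif2s3y were well above background on all 6. Ddx3y read 0.96 and 0.78 on the TrspFF arrays, -0.53 and -0.44 on Trsp-RIPKO, and 0.75 and 0.51 on Trsp-Ins1KO, and Eif2s3y differed by -1.12 in Trsp-RIPKO and -0.40 in Trsp-Ins1KO, so that both were lower members, Ddx3y narrowly. Other Y-linked genes were not lower in Trsp-Ins1KO. Kdm5d read -3.1 and -2.8 on the TrspFF arrays, -3.97 and -3.62 on Trsp-RIPKO, and -2.22 and -2.77 on Trsp-Ins1KO. The Uty probe well above background on all 6 arrays read -2.37 and -2.15 on the TrspFF arrays, -3.23 and -2.98 on Trsp-RIPKO, and -2.11 and -2.37 on Trsp-Ins1KO. The part of these sex-linked differences in the results was not tested. Groups follow the scanner files, whereas the authors' deposited table had the values of TrspFF under the names of Trsp-Ins1KO and the reverse. Taken by that table's names, none of the 8110 members could keep its direction, because TrspFF and Trsp-Ins1KO change places. By those names 1687 of the higher genes lay lower and 1803 of the lower genes lay higher, so every direction below rests on the scanner files.

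The scaling also sets the balance of directions. Members higher in both lines made up 46.2% of the shared genes, but 24.9% (1954 higher and 5898 lower) when each array was scaled on its median, which moved all genes by -0.24 in Trsp-RIPKO and -0.07 in Trsp-Ins1KO. All 4360 lower members stayed lower under that scaling, 1954 of the 3750 higher ones stayed higher, and 0 turned to the other side. Direction also went with brightness: of the 4026 dimmest genes 27.4% were higher and 14.4% lower in both lines, and of the 4026 brightest 19.6% and 35.9%. Whether brightness bears on the differences was not tested.

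**Figure D1:**
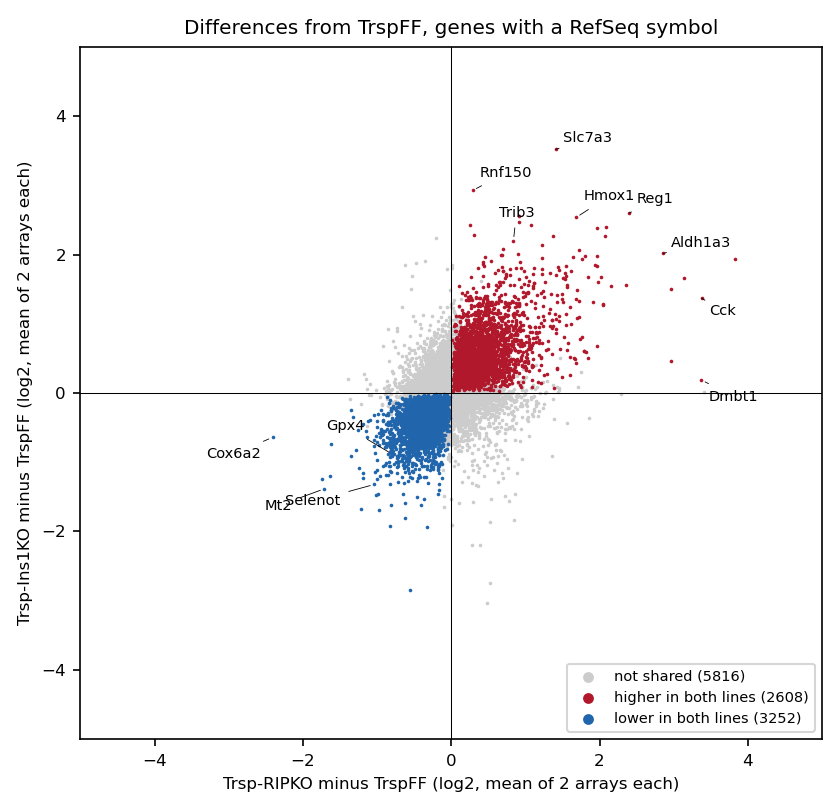
Differences from the TrspFF mean in Trsp-RIPKO (horizontal axis) and Trsp-Ins1KO (vertical axis), log2, for the 11676 measured genes with a RefSeq symbol, each point a gene and each value a mean of 2 arrays against 2. The 2608 genes higher in both lines are red and the 3252 lower in both are blue; red points reach further from the centre than blue ones, and those near an axis, such as Dmbt1 and Rnf150, differed from TrspFF mainly in 1 line.

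Most shared differences were small. Taken alone, Trsp-RIPKO had both arrays above both TrspFF arrays in 35.8% of genes and below them in 42.9%, and Trsp-Ins1KO in 41.1% and 38.9%, and the 2 lines share those controls. Among the higher members the median difference from TrspFF was 0.40 (log2) in Trsp-RIPKO and 0.50 in Trsp-Ins1KO, and among the lower ones -0.33 and -0.39, against -0.03 and 0.01 over all genes measured. Taking the smaller of a gene's 2 differences as its shared size, 158 higher members but 15 lower ones reached 1 (log2) and 917 and 487 reached 0.5. At the edge of the rule, where the nearest knockout array and the nearest control array were less than 0.1 apart, lay 1156 higher and 1305 lower members. Ppp1r12a and Nsmf were the members just inside on the higher side and Gabpb2 and Med25 on the lower side. Olfr704 and Myo1c, and Btg1 and Chfr, fell just outside. The values of Ppp1r12a, a myosin phosphatase subunit, were 3.59 and 3.72 on the TrspFF arrays, 3.72 and 3.82 on Trsp-RIPKO, and 3.94 and 4.03 on Trsp-Ins1KO. Those of Myo1c, a myosin, were 0.98 and 1.11 on the TrspFF arrays, 1.35 and 1.31 on Trsp-RIPKO, and 1.11 and 1.14 on Trsp-Ins1KO. In both genes the distance between nearest arrays, which decides membership, was smaller than that between the 2 TrspFF arrays. Where a member had several probes passing the filter (647 higher and 858 lower genes), all of them gave the same call in 215 and 358 cases, and at least 1 gave the opposite call in 108 and 133.

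Selenoprotein mRNAs lay mostly lower in both lines. Of 22 measured, 13 were lower (59.1%, against 27.1% of all genes), 5 were higher (22.7%, against 23.3%) and 4 were not shared. The median difference was -0.36 in Trsp-RIPKO and -0.22 in Trsp-Ins1KO. With median scaling 13 were lower and 3 higher, with quantile normalization 12 and 6, and with normexp background correction 11 and 4. Of the 22, 13 lay among the 4026 brightest genes, where 35.9% of all genes were lower. The 4 lower members with the largest shared size were Selenot, Selenoh, Gpx4 and Gpx1, whose knockout arrays all read at least 0.59 below the nearest TrspFF array.

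Among the glutathione peroxidases, Gpx1, the cytosolic enzyme that removes hydrogen peroxide, read 3.58 and 3.54 on the TrspFF arrays, 2.95 and 2.70 on Trsp-RIPKO, and 2.48 and 2.34 on Trsp-Ins1KO. Its differences from TrspFF were -0.74 in Trsp-RIPKO and -1.15 in Trsp-Ins1KO, and it lay lower in Trsp-Ins1KO than in Trsp-RIPKO (-0.42, SE 0.10, limma adjusted p = 0.0201). The call for Gpx1 was lost with median scaling (-0.25, limma adjusted p = 0.127), without the filter on dim probes (0.0579), without Trsp-Ins1KO replicate 2 (0.0798) and without Trsp-RIPKO replicate 1 (0.078). Gpx4, which reduces lipid hydroperoxides in membranes, read 4.38 and 4.30 on the TrspFF arrays, 3.57 and 3.53 on Trsp-RIPKO, and 3.52 and 3.39 on Trsp-Ins1KO. Both lines lay close together, 1.73-fold (Trsp-RIPKO) and 1.85-fold (Trsp-Ins1KO) below TrspFF, and did not pass the test of their difference (-0.09, SE 0.08, limma adjusted p = 0.361). Gpx3, a secreted peroxidase, was also lower, but its nearest arrays were 0.11 apart. Gpx2, the peroxidase of the gut lining, went the other way at 1.53 and 1.46 on the TrspFF arrays, 2.37 and 2.41 on Trsp-RIPKO, and 3.51 and 3.50 on Trsp-Ins1KO. All 3 groups were apart for Gpx2, and Trsp-Ins1KO was higher than Trsp-RIPKO (1.12, SE 0.07, limma adjusted p = 0.000375).

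Selenot, a redox protein of the endoplasmic reticulum, read 3.83 and 3.75 on the TrspFF arrays, 2.92 and 2.59 on Trsp-RIPKO, and 2.44 and 2.50 on Trsp-Ins1KO, the largest shared size among the selenoproteins. Another Selenot probe gave smaller differences of -0.33 in Trsp-RIPKO and -0.50 in Trsp-Ins1KO. Selenoh, a nuclear selenoprotein that binds DNA, read 1.24 and 1.26 on the TrspFF arrays, 0.48 and 0.36 on Trsp-RIPKO, and 0.34 and 0.29 on Trsp-Ins1KO, and its 4 knockout arrays lay within a narrow range below TrspFF. Other proteins of the endoplasmic reticulum were lower by less: Selenof and Selenok read between 0.36 and 0.47 below TrspFF in each line, though another Selenok probe did not meet the rule. Selenos and Selenom were members by gaps of only 0.01 and 0.02. Selenon, a calcium regulator of the same compartment, was on the higher side by a gap of 0.04, which turned with median scaling.

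Selenop, the plasma protein that carries selenium between tissues, read 5.89 and 5.91 on the TrspFF arrays, 5.61 and 5.52 on Trsp-RIPKO, and 4.99 and 4.92 on Trsp-Ins1KO. It was lower in both lines and lower in Trsp-Ins1KO than in Trsp-RIPKO (-0.62, SE 0.07, limma adjusted p = 0.00169). Selenow, a small muscle selenoprotein, differed by -0.40 in Trsp-RIPKO and -0.20 in Trsp-Ins1KO, Selenoi, an enzyme of phosphatidylethanolamine synthesis, by -0.38 in Trsp-RIPKO and -0.45 in Trsp-Ins1KO, and Txnrd3, a thioredoxin and glutathione reductase of testis, by -0.42 in Trsp-RIPKO and -0.44 in Trsp-Ins1KO. The other thioredoxin reductases were not shared: Txnrd1 and Txnrd2 overlapped TrspFF in Trsp-RIPKO and were higher in Trsp-Ins1KO than in Trsp-RIPKO (0.65, SE 0.08, limma adjusted p = 0.00232 and 0.22, SE 0.07, limma adjusted p = 0.0391). Txnrd1 is itself a known NRF2 target. The call for Txnrd2 was lost on leaving out any 1 of the 6 arrays (limma adjusted p from 0.0507 to 0.132). On the higher side were Sephs2, which makes the selenium donor, Selenov and Msrb1, a methionine sulfoxide reductase, at shared sizes of 0.59, 0.33 and 0.12. The Trsp-RIPKO arrays of Sephs2 were far apart, at -2.98 and -2.45. Dio1 and Selenoo, lower in Trsp-RIPKO alone, were the remaining 2 not shared, and another Dio1 probe read 0.33 above TrspFF in that line. Both passed the test between lines, by 0.61 and 0.41 (limma adjusted p = 0.00221 and 0.00976). With normexp background correction Selenoo did not pass (0.10, limma adjusted p = 0.236).

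The machinery that makes and inserts selenocysteine was not lower as a group. Of 14 measured genes 0 were higher, 2 were lower (14.3%) and 12 were not shared, with medians of -0.03 in Trsp-RIPKO and 0.10 in Trsp-Ins1KO. The 2 members were Trnau1ap, which binds the selenocysteine tRNA (-0.25 in Trsp-RIPKO and -0.15 in Trsp-Ins1KO), and Rpl30, a ribosomal protein that also binds the insertion element of selenoprotein mRNAs (-0.43 in Trsp-RIPKO and -0.44 in Trsp-Ins1KO). Each was lower at all 3 of its probes. Eefsec, the elongation factor for selenocysteine, Scly, which recycles selenium, and Lrp8, a receptor for Selenop, lay near TrspFF in Trsp-RIPKO (-0.10, -0.13 and -0.06) and above it in Trsp-Ins1KO (0.54, 0.72 and 0.68). For these 3 the difference between lines passed the test (limma adjusted p = 0.00215, 0.00102 and 0.00147).

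**Figure D2:**
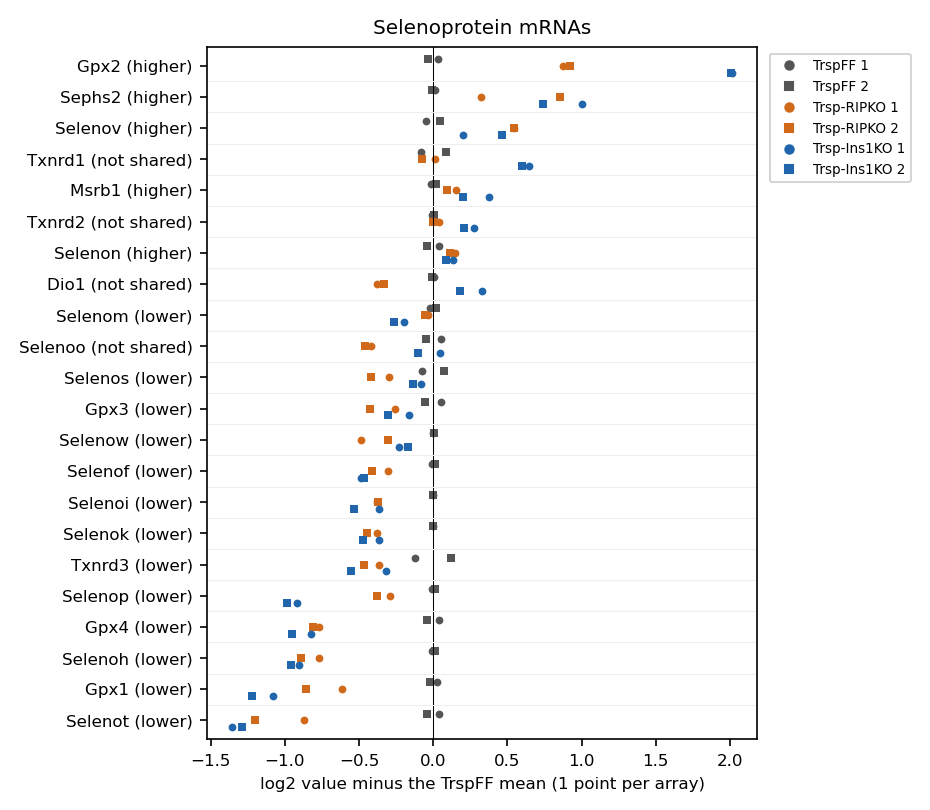
Each of the 22 measured selenoprotein mRNAs as its log2 value minus the TrspFF mean (horizontal axis), 1 point per array, with circles for replicate 1 and squares for replicate 2, ordered by the mean of both lines. The 4 knockout points of Selenot, Gpx1, Selenoh and Gpx4 all lie left of -0.5, while those of Gpx2 lie right of 0.8.

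Genes of the NRF2 pathway were more often higher than lower. Of 36 measured, 15 were higher in both lines (41.7%, or 11 genes with median scaling) and 4 were lower (11.1%, or 6), with medians of 0.04 in Trsp-RIPKO and 0.27 in Trsp-Ins1KO. The higher members were led by heme oxygenase and by glutathione transferases, which join glutathione to reactive compounds. Hmox1, which degrades heme, read -1.20 and -1.39 on the TrspFF arrays, 0.35 and 0.43 on Trsp-RIPKO, and 1.33 and 1.15 on Trsp-Ins1KO on its brighter probe, but another probe gave only 0.09 in Trsp-RIPKO and 0.14 in Trsp-Ins1KO. Gstp2 read 4.44 and 4.43 on the TrspFF arrays, 5.34 and 5.40 on Trsp-RIPKO, and 6.29 and 6.19 on Trsp-Ins1KO, with all 3 groups apart, and both of its probes met the rule. Gstm3 differed by 0.98 in Trsp-RIPKO and 1.76 in Trsp-Ins1KO, and Gstm4 by 1.00 in Trsp-RIPKO and 1.68 in Trsp-Ins1KO. Glutathione transferases of a class are close copies whose probes may share signal.

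In each of these 4 genes Trsp-Ins1KO was higher than Trsp-RIPKO, by 0.85 (Hmox1, limma adjusted p = 0.0018), 0.87 (Gstp2, 0.000677), 0.79 (Gstm3, 0.00351) and 0.68 (Gstm4, 0.011). Without Trsp-Ins1KO replicate 2 Gstm4 missed the threshold (limma adjusted p = 0.052). Over the pathway 25 of 36 genes passed that test, 23 of them higher in Trsp-Ins1KO, against 43.9% of all genes passing and 24.7% passing as higher. The lower members held the regulator itself and a standard target. Nfe2l2, which encodes NRF2, read 1.21 and 1.23 on the TrspFF arrays, 0.71 and 0.75 on Trsp-RIPKO, and 0.67 and 0.72 on Trsp-Ins1KO, and Nqo1, a quinone reductase, read -1.86 and -1.99 on the TrspFF arrays, -2.63 and -2.94 on Trsp-RIPKO, and -2.16 and -2.27 on Trsp-Ins1KO. Both lines overlapped for Nfe2l2, while Nqo1 was lower in Trsp-RIPKO than in Trsp-Ins1KO (0.57, SE 0.12, limma adjusted p = 0.0118). Without Trsp-Ins1KO replicate 1 that call for Nqo1 was lost (limma adjusted p = 0.0551). G6pdx and Taldo1, enzymes of the pentose phosphate pathway, were lower by gaps of 0.04 each.

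Other antioxidant enzymes were mostly lower: 17 of 31 in both lines (54.8%, against 27.1% of all genes) and 6 higher (19.4%), with medians of -0.22 and -0.15. With median scaling the counts were 18 and 4, with quantile normalization 16 and 6, and with normexp 12 and 8. Of the 31, 15 lay among the 4026 brightest genes, where 35.9% of all genes were lower. The metallothioneins, small proteins that bind zinc and copper and take up oxidants, lay on both sides. Mt2 read 6.19 and 6.20 on the TrspFF arrays, 4.49 and 4.48 on Trsp-RIPKO, and 4.83 and 4.79 on Trsp-Ins1KO, 3.28-fold below TrspFF in Trsp-RIPKO and 2.61-fold in Trsp-Ins1KO, and was the member of largest shared size on the lower side. Mt1 read 7.50 and 7.49 on the TrspFF arrays, 6.44 and 6.53 on Trsp-RIPKO, and 6.34 and 6.18 on Trsp-Ins1KO, also apart from TrspFF on every array. Mt3, the brain form, was instead higher (0.48 in Trsp-RIPKO and 0.72 in Trsp-Ins1KO).

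Cat, which encodes catalase and is among the genes that mature beta cells keep low, read 3.82 and 3.75 on the TrspFF arrays, 4.70 and 4.57 on Trsp-RIPKO, and 5.03 and 5.30 on Trsp-Ins1KO. It was higher in both lines and higher in Trsp-Ins1KO than in Trsp-RIPKO (0.53, SE 0.11, limma adjusted p = 0.00973). Without Trsp-RIPKO replicate 2 Cat missed the threshold (limma adjusted p = 0.0504). Sod3, an extracellular superoxide dismutase, differed by 0.86 in Trsp-RIPKO and 1.25 in Trsp-Ins1KO, and Msrb3 by 1.01 in Trsp-RIPKO and 0.52 in Trsp-Ins1KO. On the lower side stood Glrx2, a mitochondrial glutaredoxin (-0.73 in Trsp-RIPKO and -0.68 in Trsp-Ins1KO), Mgst3, a membrane glutathione transferase (-0.59 in Trsp-RIPKO and -0.34 in Trsp-Ins1KO), and Sod2, the mitochondrial superoxide dismutase (-0.55 in Trsp-RIPKO and -0.18 in Trsp-Ins1KO). Iron-handling and ferroptosis genes held 8 lower members of 19 (42.1%) and 2 higher (10.5%), the latter Hmox1 and, at a shared size of 0.12 that turned with median scaling, Steap3. Gch1, which starts the synthesis of tetrahydrobiopterin, differed by -0.68 in Trsp-RIPKO and -0.40 in Trsp-Ins1KO.

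Integrated stress response genes were higher in both lines in 18 of 30 cases (60%, against 23.3% of all genes) and lower in 5 (16.7%). The median was 0.22 in Trsp-RIPKO and 0.70 in Trsp-Ins1KO, against -0.03 and 0.01 over all genes. With median scaling 11 stayed higher and 5 were lower. Trib3, a pseudokinase induced by ATF4, read 0.97 and 1.07 on the TrspFF arrays, 1.94 and 1.78 on Trsp-RIPKO, and 3.28 and 3.16 on Trsp-Ins1KO. Gpt2, which makes alanine in mitochondria, read -1.69 and -1.52 on the TrspFF arrays, -0.71 and -0.68 on Trsp-RIPKO, and -0.30 and -0.35 on Trsp-Ins1KO, and Sesn2, a leucine sensor that restrains mTORC1, read 1.71 and 1.69 on the TrspFF arrays, 2.42 and 2.43 on Trsp-RIPKO, and 3.11 and 3.15 on Trsp-Ins1KO. In each of the 3 genes no arrays of different groups overlapped and Trsp-Ins1KO stood furthest from TrspFF.

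The distance between lines passed the test for each of them, at 1.36 for Trib3 (SE 0.09, limma adjusted p = 0.000434), 0.37 for Gpt2 (SE 0.08, adjusted p = 0.0135) and 0.70 for Sesn2 (SE 0.07, adjusted p = 0.000926). For Gpt2 it was lost with normexp (0.17, limma adjusted p = 0.0551), without Trsp-Ins1KO replicate 1 (0.0506) and without Trsp-RIPKO replicate 1 (0.0588). Over the list 22 of 30 genes passed, all 22 with Trsp-Ins1KO the higher, against 24.7% of all genes measured. Psat1, which makes serine, differed from TrspFF by 0.72 in Trsp-RIPKO and 1.29 in Trsp-Ins1KO and did so on both of its probes. The genes with the element in their promoter, named here for that match after values had been seen, spanned the range. Chac1, which breaks down glutathione, read 2.72 and 2.65 on the TrspFF arrays, 3.20 and 3.43 on Trsp-RIPKO, and 4.50 and 4.42 on Trsp-Ins1KO. Nupr1, a stress-induced chromatin protein, read 3.53 and 3.47 on the TrspFF arrays, 4.08 and 3.84 on Trsp-RIPKO, and 5.47 and 5.46 on Trsp-Ins1KO. Asns, asparagine synthetase, read 5.10 and 5.11 on the TrspFF arrays, 5.13 and 5.14 on Trsp-RIPKO, and 5.51 and 5.48 on Trsp-Ins1KO, so that its Trsp-RIPKO arrays were 0.02 above TrspFF at the nearest and were not above it with median scaling. Pck2 and Vldlr differed by 0.39 in Trsp-RIPKO and 0.69 in Trsp-Ins1KO, and by 0.26 in Trsp-RIPKO and 0.64 in Trsp-Ins1KO.

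Regulators of the response lay on both sides. Atf5, a relative of ATF4, was higher by 0.24 in Trsp-RIPKO and 1.34 in Trsp-Ins1KO, and Cebpb, which encodes C/EBP beta, by 0.42 in Trsp-RIPKO and 1.53 in Trsp-Ins1KO. Atf4 read 6.65 and 6.74 on the TrspFF arrays, 6.65 and 6.70 on Trsp-RIPKO, and 7.30 and 7.31 on Trsp-Ins1KO and was not shared: Trsp-RIPKO overlapped TrspFF, and Trsp-Ins1KO was higher than Trsp-RIPKO (0.63, SE 0.07, limma adjusted p = 0.00149). With normexp Atf4 missed the threshold (0.17, limma adjusted p = 0.0505). Ddit3, which encodes CHOP, was on the lower side by a gap of 0.01, with differences of -0.42 in Trsp-RIPKO and -0.13 in Trsp-Ins1KO. The eIF2 alpha kinases Eif2ak2 (PKR), Eif2ak3 (PERK) and Eif2ak4 (GCN2) were lower in both lines, at shared sizes of 0.50, 0.12 and 0.18.

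Amino acid transporters, many of which ATF4 is known to drive, were higher in 7 of 21 cases (33.3%) and lower in 2 (9.52%), or 6 and 3 with median scaling. Slc7a3, a carrier of cationic amino acids, read -3.01 and -2.93 on the TrspFF arrays, -1.75 and -1.37 on Trsp-RIPKO, and 0.57 and 0.54 on Trsp-Ins1KO. Its Trsp-Ins1KO arrays lay 11.5-fold above TrspFF and its Trsp-RIPKO arrays 2.66-fold, a difference between lines of 2.11 (SE 0.13, limma adjusted p = 0.000375). Slc6a9, a glycine carrier, differed by 0.65 in Trsp-RIPKO and 1.60 in Trsp-Ins1KO, Slc7a5, which takes up leucine, by 0.42 in Trsp-RIPKO and 1.29 in Trsp-Ins1KO, and Slc7a1 by 0.61 in Trsp-RIPKO and 0.87 in Trsp-Ins1KO. Another probe of Slc7a5 read 0.26 and 0.30. The aminoacyl-tRNA synthetases were near the background of all genes, with 7 higher and 6 lower of 33 (21.2% and 18.2%, or 2 and 7 genes with median scaling). Mitochondrial enzymes lay on both sides: Rars2 (-0.53 in Trsp-RIPKO and -0.68 in Trsp-Ins1KO) and Yars2 (-0.41 in Trsp-RIPKO and -0.59 in Trsp-Ins1KO) were lower, and Iars2 (0.52 in Trsp-RIPKO and 0.81 in Trsp-Ins1KO) and Tars2 (0.21 in Trsp-RIPKO and 0.40 in Trsp-Ins1KO) were higher. Another probe of Iars2 read 0.01 in Trsp-RIPKO and 0.16 in Trsp-Ins1KO.

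Unfolded protein response genes were also near the background, 6 higher (20.7%) and 4 lower (13.8%) of 29, or 4 and 10 with median scaling. Derl3, which helps to export misfolded proteins, read 1.89 and 1.99 on the TrspFF arrays, 2.79 and 2.90 on Trsp-RIPKO, and 3.33 and 3.26 on Trsp-Ins1KO. Hyou1, a chaperone, differed by 0.68 in Trsp-RIPKO and 1.10 in Trsp-Ins1KO, and the sensor Ern1 (IRE1) by 0.26 in Trsp-RIPKO and 0.80 in Trsp-Ins1KO. Canx and Hsp90b1, abundant chaperones, were lower, at -0.25 in Trsp-RIPKO and -0.30 in Trsp-Ins1KO, and at -0.08 in Trsp-RIPKO and -0.26 in Trsp-Ins1KO. Heat shock and immediate early genes held 3 higher and 8 lower members of 23 (13% and 34.8%), or 1 and 10 with median scaling. The higher ones were the immediate early genes Nr4a1 (0.44 in Trsp-RIPKO and 1.84 in Trsp-Ins1KO), Egr1 (0.22 in Trsp-RIPKO and 1.35 in Trsp-Ins1KO) and Nr4a2 (0.30 in Trsp-RIPKO and 0.19 in Trsp-Ins1KO). Fosb, another immediate early gene, was the lower member of largest shared size (-1.35 in Trsp-RIPKO and -0.91 in Trsp-Ins1KO). Also lower were the chaperone genes Dnaja1 (-0.53 in Trsp-RIPKO and -0.66 in Trsp-Ins1KO) and Hspb1 (-0.62 in Trsp-RIPKO and -0.42 in Trsp-Ins1KO), and Hsph1, for which another probe met the rule on the higher side.

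**Figure D3:**
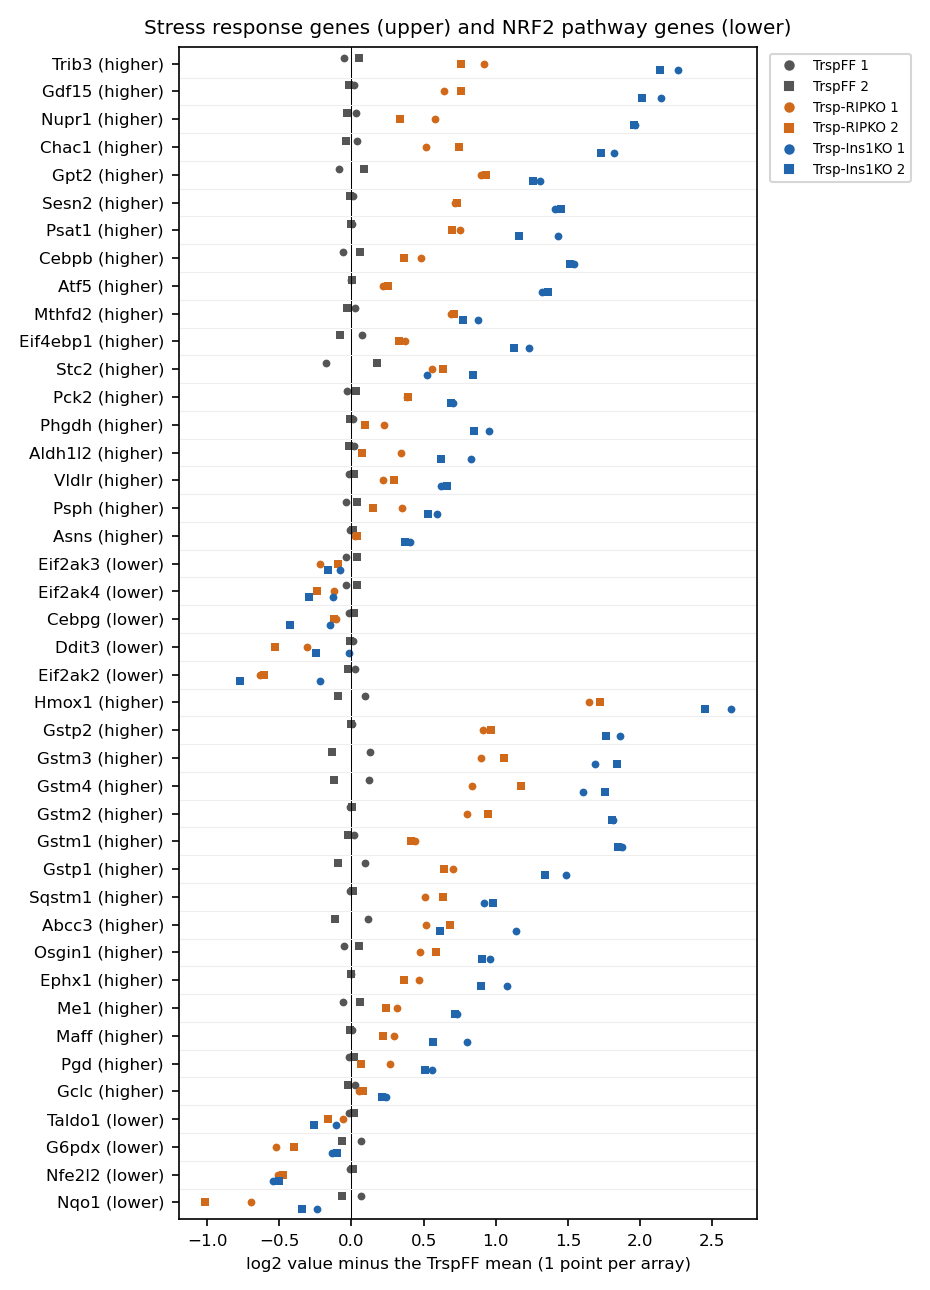
Shared genes of the integrated stress response (upper rows) and of the NRF2 pathway (lower rows) as log2 value minus the TrspFF mean, 1 point per array, with circles for replicate 1 and squares for replicate 2. In most higher genes the Trsp-Ins1KO points (blue) lie right of the Trsp-RIPKO points (orange), as for Trib3 and Gstp2, whereas Nfe2l2 and the eIF2 alpha kinases lie left of TrspFF.

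Nuclear-encoded subunits of the respiratory chain were lower as a block. Of 72 measured, 57 were lower in both lines (79.2%, against 27.1% of all genes) and 1 was higher (1.39%), with near equal medians of -0.29 in Trsp-RIPKO and -0.28 in Trsp-Ins1KO. The counts of lower members were 64 with median scaling, 48 with quantile normalization and 37 with normexp background correction, and 64 of the 72 lay among the 4026 brightest genes, where 35.9% of all genes were lower. Ndufs8, an iron-sulfur subunit of complex I, read 1.29 and 1.26 on the TrspFF arrays, 0.76 and 0.32 on Trsp-RIPKO, and 0.42 and 0.25 on Trsp-Ins1KO. Ndufa6 and Ndufb3 of the same complex differed by -0.63 in Trsp-RIPKO and -0.70 in Trsp-Ins1KO, and by -0.50 in Trsp-RIPKO and -0.52 in Trsp-Ins1KO. Uqcrq of complex III was the higher member, by a gap of 0.03 on 1 of its 2 probes, and its mean lay below TrspFF with median scaling.

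Cox6a2, the muscle form of a cytochrome oxidase subunit, stood apart from the rest of this list, with 5.32 and 5.30 on the TrspFF arrays, 2.92 and 2.89 on Trsp-RIPKO, and 4.70 and 4.64 on Trsp-Ins1KO. It was lower in both lines, but by 5.31-fold in Trsp-RIPKO against 1.56-fold in Trsp-Ins1KO, and the difference between lines was 1.77 (SE 0.07, limma adjusted p = 0.00012). Ndufaf3, which assembles complex I and was among the 12 members lowest in both lines, read 0.76 and 0.58 on the TrspFF arrays, -0.54 and -0.60 on Trsp-RIPKO, and -0.35 and -0.46 on Trsp-Ins1KO. Cytosolic ribosomal protein genes were lower in 42 of 55 cases (76.4%) and higher in 2 (3.64%), with medians of -0.22 and -0.25, and all 55 lay among the 4026 brightest genes. Rpl28 and Rps19 differed by -0.58 in Trsp-RIPKO and -0.59 in Trsp-Ins1KO, and by -0.55 in Trsp-RIPKO and -0.78 in Trsp-Ins1KO, while Rpsa and Rplp0 were the 2 higher members, which were not higher with median scaling. Another probe of Rpsa met the rule on the lower side (-0.26 and -0.17). Proteasome subunits were lower in 17 of 34 cases (50%) and higher in 3 (8.82%), with Psmb7, a catalytic subunit, at -0.52 in Trsp-RIPKO and -0.56 in Trsp-Ins1KO. The lower count was 18 with median scaling, 12 with quantile normalization and 13 with normexp. Of the 34 subunits, 21 lay among the 4026 brightest genes, where 35.9% of all genes were lower.

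Glycolysis and hypoxia genes were lower in 11 of 27 cases (40.7%) and higher in 6 (22.2%), or 14 and 3 with median scaling. Pfkfb3, which raises the activator of phosphofructokinase, read -2.48 and -2.62 on the TrspFF arrays, -1.80 and -1.59 on Trsp-RIPKO, and -1.44 and -1.71 on Trsp-Ins1KO, and Epas1, which encodes HIF-2 alpha, differed by 0.38 in Trsp-RIPKO and 0.98 in Trsp-Ins1KO with all 3 of its probes higher. Hif1a read -0.85 and -0.92 on the TrspFF arrays, -1.40 and -1.43 on Trsp-RIPKO, and -1.53 and -1.27 on Trsp-Ins1KO, and Pgk1, a glycolytic enzyme, differed by -0.48 in Trsp-RIPKO and -0.48 in Trsp-Ins1KO. The 2 HIF alpha genes thus lay on opposite sides of TrspFF. Pdk3, a kinase that shuts the pyruvate dehydrogenase complex, was among the lowest members, at -1.69 and -1.64 on the TrspFF arrays, -2.86 and -2.86 on Trsp-RIPKO, and -2.65 and -3.01 on Trsp-Ins1KO. Its relative Pdk1 was higher by 0.33 in Trsp-RIPKO and 0.46 in Trsp-Ins1KO.

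Genes of fatty acid oxidation were split 6 higher to 7 lower of 22 (27.3% and 31.8%), and those of sterol and fatty acid synthesis 8 to 10 of 32 (25% and 31.2%). With median scaling these became 2 to 11 and 2 to 16. Hadhb and Hadha, the subunits of the mitochondrial trifunctional protein, were lower, at -0.34 in Trsp-RIPKO and -0.24 in Trsp-Ins1KO, and at -0.41 in Trsp-RIPKO and -0.22 in Trsp-Ins1KO. Hadh, which completes the oxidation of shorter chains and is known to restrain insulin release, was higher (0.36 in Trsp-RIPKO and 0.41 in Trsp-Ins1KO). Among synthesis genes, the desaturase Scd2 differed by -0.71 in Trsp-RIPKO and -0.58 in Trsp-Ins1KO, and the sterol enzymes Cyp51 and Msmo1 by -0.57 in Trsp-RIPKO and -0.73 in Trsp-Ins1KO, and by -0.40 in Trsp-RIPKO and -0.59 in Trsp-Ins1KO. Acacb and Dgat2, of fatty acid and triglyceride synthesis, were higher by 0.50 in Trsp-RIPKO and 0.53 in Trsp-Ins1KO, and by 0.47 in Trsp-RIPKO and 0.82 in Trsp-Ins1KO. Lpl, which releases fatty acids from lipoproteins, and Fabp4, which binds them in fat and endothelial cells, were lower, at -0.46 in Trsp-RIPKO and -1.51 in Trsp-Ins1KO, and at -0.96 in Trsp-RIPKO and -1.20 in Trsp-Ins1KO. Another probe of Lpl read -0.09 in Trsp-RIPKO and -1.29 in Trsp-Ins1KO.

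Beta-cell identity genes showed no common direction. Of 42 measured, 9 were higher (21.4%) and 8 lower (19%), and with median scaling 0 were higher and 12 lower. Both insulin genes were on the higher side, Ins1 at 10.24 and 10.48 on the TrspFF arrays, 10.56 and 10.70 on Trsp-RIPKO, and 11.27 and 11.41 on Trsp-Ins1KO and Ins2 at 10.12 and 10.25 on the TrspFF arrays, 10.27 and 10.34 on Trsp-RIPKO, and 10.98 and 11.11 on Trsp-Ins1KO. Their nearest Trsp-RIPKO arrays were only 0.08 and 0.02 above TrspFF, and with median scaling neither was higher. Trsp-Ins1KO was higher than Trsp-RIPKO for both (0.72, SE 0.11, limma adjusted p = 0.00388 for Ins1 and 0.74, SE 0.08, limma adjusted p = 0.00167 for Ins2). Both calls were lost with quantile normalization (-0.16, limma adjusted p = 0.0733 for Ins1 and 0.03, 0.727 for Ins2) and with normexp, where the lines were 0.00 and 0.04 apart, so the order of the lines in insulin mRNA rests on the scaling.

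The lower members of the list were clearer. Trpm5, a cation channel that shapes electrical activity, read 3.24 and 3.04 on the TrspFF arrays, 2.21 and 2.11 on Trsp-RIPKO, and 1.54 and 1.35 on Trsp-Ins1KO, and Slc2a2, the glucose transporter GLUT2, read 4.57 and 4.49 on the TrspFF arrays, 3.90 and 3.93 on Trsp-RIPKO, and 3.87 and 3.76 on Trsp-Ins1KO. For Slc2a2 the lines did not pass the test of their difference (limma adjusted p = 0.342), whereas Trpm5 was lower in Trsp-Ins1KO than in Trsp-RIPKO (-0.72, SE 0.10, limma adjusted p = 0.00334). With normexp Slc2a2 was instead called lower in Trsp-Ins1KO (-0.27, limma adjusted p = 0.0105). Nnat, an imprinted gene of neuroendocrine cells, and Gcgr, the glucagon receptor, differed by -0.83 in Trsp-RIPKO and -1.32 in Trsp-Ins1KO, and by -0.82 in Trsp-RIPKO and -0.65 in Trsp-Ins1KO. All 4 knockout arrays of Gcgr lay at least 0.53 below TrspFF. Exocytosis and ion channel genes held 7 higher and 7 lower members of 30 (23.3% each), or 4 and 11 with median scaling. Cplx2, a complexin, and Snap25, a SNARE protein, were higher by 0.67 in Trsp-RIPKO and 1.33 in Trsp-Ins1KO, and by 0.39 in Trsp-RIPKO and 0.95 in Trsp-Ins1KO, while Stx1a and Rab27a, which dock granules, were lower, at -0.56 in Trsp-RIPKO and -0.60 in Trsp-Ins1KO, and at -0.54 in Trsp-RIPKO and -0.68 in Trsp-Ins1KO. Another probe of Cplx2 read -0.13 in Trsp-RIPKO and 0.31 in Trsp-Ins1KO.

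Genes of dedifferentiated or progenitor-like endocrine cells were higher in 8 of 13 cases (61.5%, or 7 genes with median scaling) and lower in 1 (7.69%). Aldh1a3, a retinaldehyde dehydrogenase known from failing beta cells, read -1.49 and -1.34 on the TrspFF arrays, 1.45 and 1.44 on Trsp-RIPKO, and 0.66 and 0.54 on Trsp-Ins1KO, so that it was 7.25-fold above TrspFF in Trsp-RIPKO and 4.05-fold in Trsp-Ins1KO. Cck, which encodes cholecystokinin, read -3.22 and -3.38 on the TrspFF arrays, 0.19 and -0.04 on Trsp-RIPKO, and -1.78 and -2.07 on Trsp-Ins1KO. For both genes the 3 groups were apart and Trsp-RIPKO stood highest, above Trsp-Ins1KO by 0.84 for Aldh1a3 (limma adjusted p = 0.00107) and 2.01 for Cck (0.000426). Serpina7 was higher in the other order (0.79 in Trsp-RIPKO and 1.79 in Trsp-Ins1KO), and Hes1, a Notch target, differed by 0.80 in Trsp-RIPKO and 0.63 in Trsp-Ins1KO. The lower member was Ccnd2, a cyclin that beta cells use to divide (-0.59 in Trsp-RIPKO and -0.41 in Trsp-Ins1KO). Of genes that beta cells normally keep silent, 5 of 16 were higher (31.2%) and 0 lower, or 4 and 1 with median scaling, among them Slc16a1, a carrier of pyruvate and lactate, at -3.14 and -3.23 on the TrspFF arrays, -2.34 and -2.40 on Trsp-RIPKO, and -2.60 and -2.39 on Trsp-Ins1KO, and Igfbp4, at 1.57 in Trsp-RIPKO and 0.72 in Trsp-Ins1KO.

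Hormones of the other islet cells lay lower. Ghrl (ghrelin) read -0.44 and -0.45 on the TrspFF arrays, -2.09 and -2.28 on Trsp-RIPKO, and -1.54 and -1.82 on Trsp-Ins1KO, and Ppy (pancreatic polypeptide) read 8.87 and 8.87 on the TrspFF arrays, 7.78 and 7.86 on Trsp-RIPKO, and 8.28 and 8.10 on Trsp-Ins1KO. Sst (somatostatin) read 7.89 and 7.86 on the TrspFF arrays, 7.56 and 7.65 on Trsp-RIPKO, and 7.15 and 7.04 on Trsp-Ins1KO, and Gcg (glucagon) differed by -0.21 in Trsp-RIPKO and -0.56 in Trsp-Ins1KO. All 4 were apart from TrspFF on every knockout array. Ghrl and Ppy were lower in Trsp-RIPKO than in Trsp-Ins1KO, by 0.50 and 0.37, and Sst and Gcg lower in Trsp-Ins1KO, by 0.51 and 0.34 (limma adjusted p = 0.0152, 0.0163, 0.00348 and 0.0132). Each of these calls but that of Sst was lost under some setting. Ghrl missed the threshold with normexp (limma adjusted p = 0.0627), without Trsp-Ins1KO replicate 1 (0.0511) and without Trsp-RIPKO replicate 2 (0.0723). Ppy missed it with quantile normalization (limma adjusted p = 0.0978), without the filter on dim probes (0.0511), without Trsp-Ins1KO replicate 1 (0.0509) and without Trsp-RIPKO replicate 1 (0.0738), and Gcg with median scaling (0.157) and without Trsp-RIPKO replicate 2 (0.0621). Their list as a whole held 5 lower (29.4%) and 2 higher members (11.8%) of 17, or 10 and 2 with median scaling. The higher ones were Lepr, the leptin receptor, and Gc, the vitamin D binding protein of alpha cells. In the list of response to lactogens and growth hormone, Cish, a STAT5 target, was the lower member of largest shared size, at 1.27 and 1.27 on the TrspFF arrays, -0.34 and -0.38 on Trsp-RIPKO, and 0.50 and 0.56 on Trsp-Ins1KO, with Ghr, the growth hormone receptor, at -0.32 in Trsp-RIPKO and -0.45 in Trsp-Ins1KO, and Cdh1, E-cadherin, higher at 0.43 in Trsp-RIPKO and 1.90 in Trsp-Ins1KO.

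Cell-cycle genes were higher in 12 of 29 cases (41.4%) and lower in 2 (6.9%), or 7 and 4 with median scaling. The medians were 0.565 in Trsp-RIPKO and 0.171 in Trsp-Ins1KO. Of the 29, 15 passed the test between lines, 11 of them lower in Trsp-Ins1KO, against 43.9% of all genes passing and 19.3% passing as lower. Mcm3 of the replicative helicase read -2.64 and -2.66 on the TrspFF arrays, -1.40 and -1.65 on Trsp-RIPKO, and -1.38 and -1.47 on Trsp-Ins1KO, with Mcm2 at 0.76 in Trsp-RIPKO and 0.66 in Trsp-Ins1KO, and Mcm5 at 0.69 in Trsp-RIPKO and 0.58 in Trsp-Ins1KO. For these 3 the test between lines was not passed (limma adjusted p = 0.444, 0.381 and 0.313). Mki67, which marks cells in division, was not shared: its brighter probe was 1.71 above TrspFF in Trsp-RIPKO and 0.08 in Trsp-Ins1KO. Another Mki67 probe read -0.35 and -0.45 on the TrspFF arrays, 0.82 and 0.72 on Trsp-RIPKO, and -1.05 and -0.95 on Trsp-Ins1KO, so below TrspFF in that line. Tpx2, a spindle factor, differed by 0.55 in Trsp-RIPKO and 1.31 in Trsp-Ins1KO. Among p53 targets and apoptosis genes, 12 of 31 were higher (38.7%) and 6 lower (19.4%), or 5 higher and 10 lower with median scaling. Cdkn1a, which encodes the cell-cycle inhibitor p21, read 0.10 and 0.10 on the TrspFF arrays, 0.58 and 0.54 on Trsp-RIPKO, and 1.45 and 1.50 on Trsp-Ins1KO, and was higher in Trsp-Ins1KO than in Trsp-RIPKO (0.91, SE 0.07, limma adjusted p = 0.000509). Pmaip1, which promotes apoptosis, was higher by 0.66 in Trsp-RIPKO and 1.09 in Trsp-Ins1KO. Ccng1, a p53 target, was lower (-0.14 in Trsp-RIPKO and -0.79 in Trsp-Ins1KO), and Trp53 itself was not shared.

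Markers of exocrine acinar cells were higher in both lines in nearly the whole list: 22 of 27 (81.5%, against 23.3% of all genes), with 2 lower, and the same 22 and 2 by count with median scaling. The medians were 1.50 in Trsp-RIPKO and 1.21 in Trsp-Ins1KO. The summed level of the list, on the log2 scale, stood at 4.89 and 4.93 on the TrspFF arrays against 5.80 and 5.91 on those of Trsp-RIPKO and 5.69 and 5.61 on those of Trsp-Ins1KO. Reg1, a secreted lectin, read -3.23 and -3.03 on the TrspFF arrays, -0.74 and -0.72 on Trsp-RIPKO, and -0.48 and -0.58 on Trsp-Ins1KO. The trypsinogens Try5 and Prss2 read -0.72 and -0.69 on the TrspFF arrays, 1.38 and 1.36 on Trsp-RIPKO, and 1.57 and 1.56 on Trsp-Ins1KO for Try5, and differed by 1.96 in Trsp-RIPKO and 1.99 in Trsp-Ins1KO for Prss2, and Cela3b, an elastase, differed by 1.76 in Trsp-RIPKO and 1.94 in Trsp-Ins1KO. Within each of these 4 genes every knockout array was at least 1.73 above TrspFF, and the mean was higher in Trsp-Ins1KO than in Trsp-RIPKO. The list mostly went the other way. Of the 27, 16 passed the test between lines, 13 of them lower in Trsp-Ins1KO and 3 higher. Over all genes 43.9% passed, 19.3% as lower in Trsp-Ins1KO. Trypsinogen genes are close copies whose probes may share signal. The 2 lower members were Bhlha15, a secretory-cell factor that beta cells also express, and Syn2 (-0.21 in Trsp-RIPKO and -0.28 in Trsp-Ins1KO, and -0.26 in Trsp-RIPKO and -0.57 in Trsp-Ins1KO). Syn2 was counted in this list but encodes a synapsin, which is not an acinar marker. Ptf1a, the factor that defines acinar fate, was not well above background on any array.

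Endothelial genes were higher in 12 of 19 cases (63.2%, or 5 with median scaling) and lower in 1 (5.26%), and their summed level stood at 6.31 and 6.32 on the TrspFF arrays against 6.59 and 6.58 on those of Trsp-RIPKO and 7.05 and 7.06 on those of Trsp-Ins1KO. Cdh5, VE-cadherin, read -2.10 and -1.97 on the TrspFF arrays, -1.16 and -1.33 on Trsp-RIPKO, and -0.36 and -0.30 on Trsp-Ins1KO, and Flt1, a VEGF receptor, differed by 0.61 in Trsp-RIPKO and 1.49 in Trsp-Ins1KO. In both the 3 groups were apart, in the same order as the summed level. Pecam1, another endothelial gene, was not shared and did not follow that order. It read -2.18 and -2.23 on the TrspFF arrays, -1.96 and -1.78 on Trsp-RIPKO, and -2.2 and -2.06 on Trsp-Ins1KO. Lyve1, of lymphatic vessels and some macrophages, was the lower member (-0.47 in Trsp-RIPKO and -1.27 in Trsp-Ins1KO). Vegfa, the ligand that beta cells supply, was on the lower side on the probe used, but another probe met the rule on the higher side. Macrophage and dendritic-cell genes were higher in 6 of 17 cases (35.3%) and lower in 3 (17.6%), or 2 and 3 with median scaling. Fibroblast and stellate-cell genes were so in 5 and 1 of 16 (31.2% and 6.25%), or 3 and 1 with median scaling. The medians of that list had opposite signs, 0.547 in Trsp-RIPKO and -0.305 in Trsp-Ins1KO. Of its 16 genes 13 passed the test between lines, 10 of them lower in Trsp-Ins1KO and 3 higher, against 43.9% of all genes passing. Haemoglobin genes were lower, Hbb-b2 at -0.82 in Trsp-RIPKO and -1.92 in Trsp-Ins1KO, and Hba-a1 at -0.89 in Trsp-RIPKO and -0.78 in Trsp-Ins1KO, within an erythrocyte list of 8 genes that held 5 lower and 0 higher.

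Of 8 measured intestinal genes 5 were higher (3 with median scaling) and 0 lower, with Zg16, a secretory granule lectin that acinar cells share, at 1.50 in Trsp-RIPKO and 1.31 in Trsp-Ins1KO, and Anpep, an aminopeptidase, at 0.54 in Trsp-RIPKO and 1.31 in Trsp-Ins1KO. The intestinal fatty-acid-binding protein Fabp2 was well above background on the Trsp-RIPKO arrays alone and so was no candidate member, and Fabp1 on the arrays of both knockout lines but on neither TrspFF array. T and B cell genes held 3 higher members (Cd22, Cd4 and Nkg7) of 5 measured, while Cd3d, Cd3g, Cd8a and Cd79a were not well above background on any array. Interferon genes held 5 higher and 2 lower members of 24 (20.8% and 8.33%), or 2 and 8 with median scaling. NF-kB and cytokine genes held 7 and 2 of 15 (46.7% and 13.3%), or 5 and 4 with median scaling, with Il1b lower (-0.88 in Trsp-RIPKO and -0.44 in Trsp-Ins1KO). The summed level of the macrophage list stood at 7.43 and 7.42 on the TrspFF arrays against 7.79 and 7.86 on those of Trsp-RIPKO and 8.24 and 8.31 on those of Trsp-Ins1KO. Most of that sum was Itgam, whose brightest probe read 7.11 and 7.09 on the TrspFF arrays, 7.54 and 7.64 on Trsp-RIPKO, and 7.97 and 8.08 on Trsp-Ins1KO. Only 1 of its 3 probes met the rule. The others differed by 0.32 in Trsp-RIPKO and -0.04 in Trsp-Ins1KO, and by 0.40 in Trsp-RIPKO and 0.33 in Trsp-Ins1KO. What part acinar, endothelial or immune cells among the islets had in the shared differences was not tested.

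**Figure D4:**
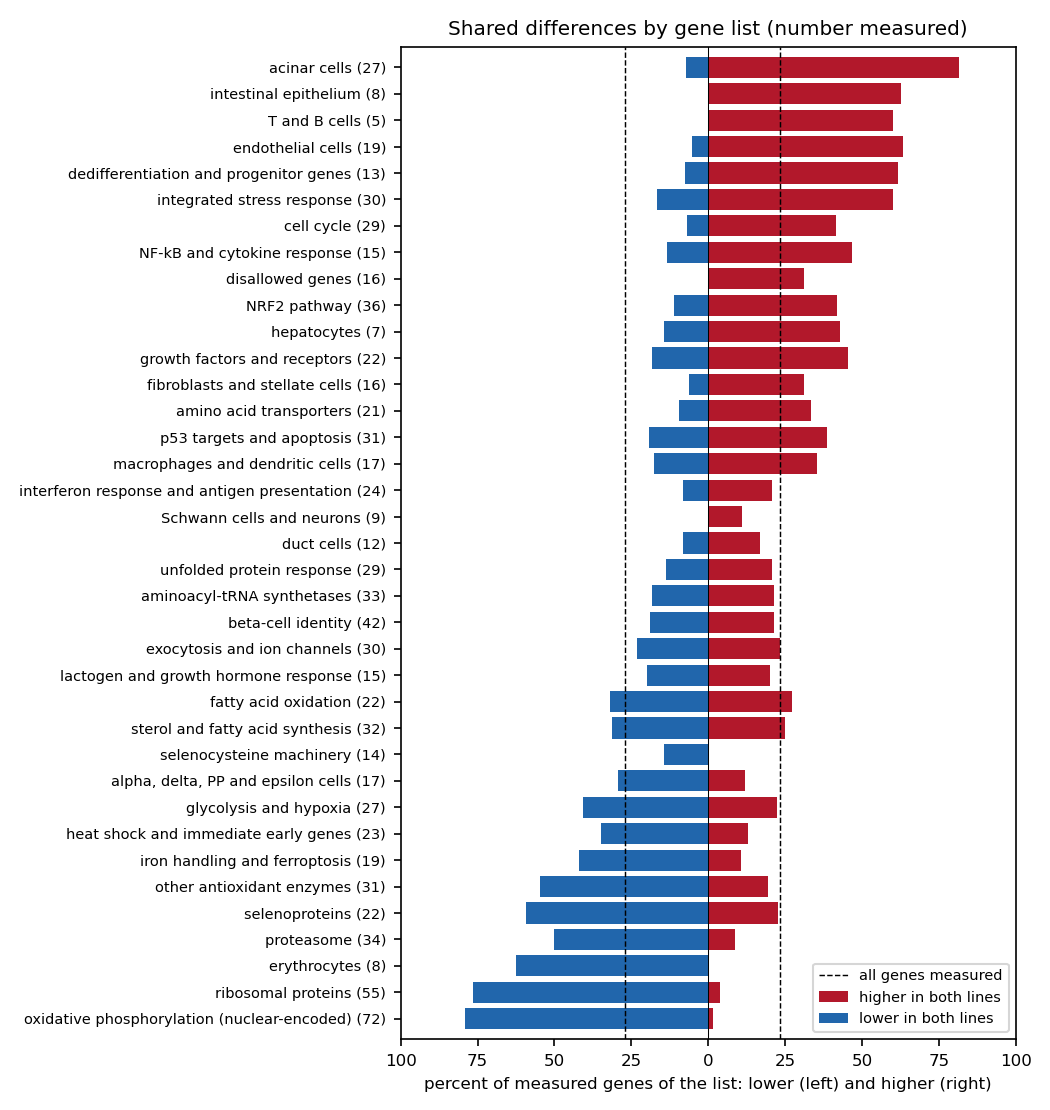
For each gene list, the percent of its measured genes that were higher in both lines (red, to the right) and lower in both (blue, to the left), with the number measured in brackets; the dashed lines stand at 23.3% and 27.1%, the shares over all 16104 genes. Acinar cells (81.5% higher) stand at the top, and ribosomal proteins (76.4% lower) and oxidative phosphorylation (79.2% lower) at the bottom.

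The members of largest shared size on the higher side differed in how close their arrays lay. The acinar genes Reg1, Try5, Try4 and Cela3b, with Aldh1a3 and Grifin, had an SD below the typical one in both lines (0.136 in Trsp-RIPKO and 0.152 in Trsp-Ins1KO). The acinar gene Prss2 did not, with an SD of 0.153 in Trsp-RIPKO and 0.227 in Trsp-Ins1KO. Iqcf4 had 0.244 in Trsp-RIPKO and 0.020 in Trsp-Ins1KO. The Trsp-Ins1KO arrays of Rhox3c, AU018091 and Prex2 were far apart, with an SD of 0.58, 0.61 and 0.50 against a typical 0.15 over all genes. Rhox3c, a homeobox gene, read -1.17 and -0.89 on the TrspFF arrays, 1.11 and 0.72 on Trsp-RIPKO, and 0.41 and 1.23 on Trsp-Ins1KO, and Prex2, a Rac activator, read -2.84 and -2.61 on the TrspFF arrays, -0.71 and -1.14 on Trsp-RIPKO, and -1.10 and -0.39 on Trsp-Ins1KO. Rprl2, an RNA related to that of ribonuclease P, read 0.00 and 0.23 on the TrspFF arrays, 2.03 and 2.37 on Trsp-RIPKO, and 2.20 and 2.82 on Trsp-Ins1KO, and Iqcf4 differed by 1.72 in Trsp-RIPKO and 2.06 in Trsp-Ins1KO. Grifin, a lens galectin, was the furthest member in Trsp-RIPKO, at -4.31 and -3.97 on the TrspFF arrays, -0.24 and -0.37 on Trsp-RIPKO, and -2.22 and -2.17 on Trsp-Ins1KO, or 14.2-fold above TrspFF there and 3.84-fold in Trsp-Ins1KO. On the lower side, besides the metallothioneins, Ghrl, Selenot, Pdk3 and Ndufaf3, stood Cebpd, a C/EBP factor, at 1.50 and 1.51 on the TrspFF arrays, 0.60 and 0.36 on Trsp-RIPKO, and 0.43 and 0.29 on Trsp-Ins1KO, and Tmsb15l, a thymosin, at -1.22 in Trsp-RIPKO and -1.67 in Trsp-Ins1KO. T2, a Brachyury relative, differed by -1.64 in Trsp-RIPKO and -1.20 in Trsp-Ins1KO, Ten1, which guards telomeres, by -1.19 in Trsp-RIPKO and -1.23 in Trsp-Ins1KO and Dnase1l2 by -1.02 in Trsp-RIPKO and -1.48 in Trsp-Ins1KO, and Rab19 completed the 12.

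**Figure D5:**
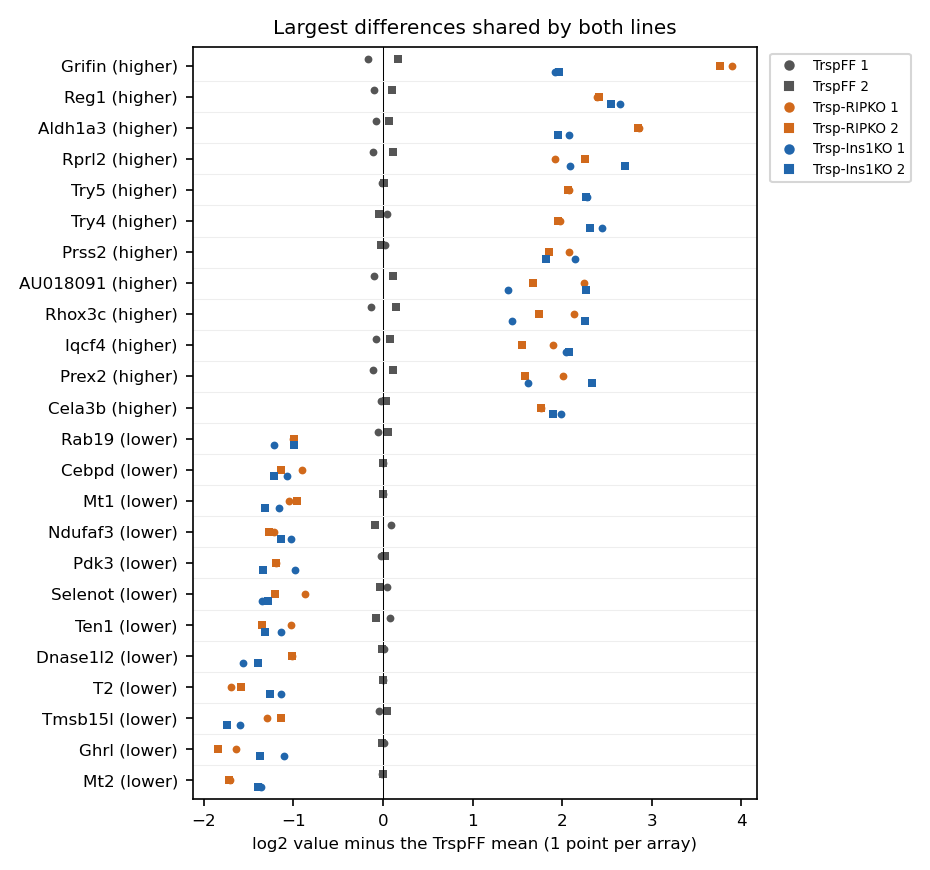
The 12 shared genes of largest shared size in each direction, as log2 value minus the TrspFF mean, 1 point per array, with circles for replicate 1 and squares for replicate 2. Every knockout point of the higher genes lies right of 1.3 and every one of the lower genes left of -0.8, with Grifin in Trsp-RIPKO the furthest to the right.

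Between the 2 lines, many members differed in size. Trsp-Ins1KO and Trsp-RIPKO differed in 7073 of 16104 genes at an adjusted p under 0.05 (43.9%; limma, 24.7% higher and 19.3% lower in Trsp-Ins1KO). Each line lay on its own slide, so line and slide cannot be told apart in this test. Of the members 1458 of 3750 higher ones passed (38.9%) and 1173 of 4360 lower ones (26.9%); the rule used the same knockout arrays, so these shares are a description of the members. Trsp-Ins1KO stood further from TrspFF in 1049 of the 1458 and in 836 of the 1173. With median scaling the count higher in Trsp-Ins1KO over all genes was 6303 and the count lower 1733.

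Among members with a RefSeq symbol, the largest excess of Trsp-Ins1KO was in Rnf150, a ubiquitin ligase gene, at -1.59 and -1.43 on the TrspFF arrays, -1.31 and -1.13 on Trsp-RIPKO, and 1.47 and 1.37 on Trsp-Ins1KO, a difference between lines of 2.64 (SE 0.10, limma adjusted p = 0.00012). Apoc1, an apolipoprotein, followed (2.18, SE 0.08, limma adjusted p = 0.00012), then Slc7a3 as above, Dusp23 (1.98, SE 0.12, limma adjusted p = 0.000368) and Cox6a2. In Rnf150, Apoc1 and Dusp23 the Trsp-RIPKO arrays were between 0.11 and 0.20 above the nearest TrspFF array, so these members are shared by a narrow margin in that line. In the other direction the largest was Dmbt1, a mucin-like protein of gut and gland linings, at -2.32 and -2.19 on the TrspFF arrays, 1.19 and 1.05 on Trsp-RIPKO, and -2.15 and -1.98 on Trsp-Ins1KO. It was 10.4-fold above TrspFF in Trsp-RIPKO, a member by a gap of 0.04 in Trsp-Ins1KO, and differed between lines by -3.19 (SE 0.10, limma adjusted p = 8.63e-05). Fkbp11, a secretory-pathway isomerase, read -3.34 and -3.16 on the TrspFF arrays, -0.03 and -0.55 on Trsp-RIPKO, and -3.05 and -2.54 on Trsp-Ins1KO, with a difference between lines of -2.50 (SE 0.22, limma adjusted p = 0.000842). Ifi27l2a, an interferon-induced gene, was lower in both lines and far lower in Trsp-Ins1KO (-2.29, SE 0.21, limma adjusted p = 0.000901). Cck and Grifin, at -2.01 and -1.89, completed the 5.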

How the data were processed

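Total RNA of isolated islets was labelled with Cy3 (Agilent Low Input Quick Amp, per the labels' protocols) and hybridised to 6 1-colour arrays (Agilent design 026655). Per the file headers, the authors' scanner files were made with Feature Extraction 10.7.3.1, which subtracted background and detrended each spot to give the processed intensity. The same deposited files hold flags of 0 or 1 for spots well above background and raw median intensities of spot and background. The authors' deposited table of log2 values follows the scanner values scaled to the 75th percentile with each probe centred over arrays. Its making is not stated in the labels or headers. Its columns were matched to scanner files by correlation of those differences (each 1.0 with 1 file), 4 columns follow a file of another name, and it served only as an alternative.

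Spots of a probe were averaged (43020 spots, with 1377 control spots left out), and log2 processed intensity was taken minus each array's 75th percentile over 39426 probes. A probe was named through its accession in RefSeq's GRCm38.p6 table (26053 probes, 66.1%) and otherwise kept the file's name. A gene was read on its brightest probe well above background on all 6 arrays, leaving 16104 genes. Saturated spots were kept. The contrast with TrspFF was described by the rule on arrays alone. Trsp-Ins1KO against Trsp-RIPKO was tested with limma 3.58.1 (R 4.3.3; lmFit with 1 mean per group over all 6 arrays and eBayes, two-sided, Benjamini-Hochberg adjusted p under 0.05 over all genes), a step tested on simulated data. Python 3.11.15, pandas 2.3.3, numpy 2.4.6 and matplotlib 3.10.9 did the rest.

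The members and the 38 gene lists were chosen with earlier results of these data known. Named were, by rule, all selenoprotein and selenocysteine machinery genes, the 12 members of largest shared size in each direction, up to 4 per other list and direction, the 2 nearest the rule's edge on each side, Ins1, Ins2, Atf4, Ddit3, Nfe2l2 and Trp53, and the 5 largest differences between lines in each direction. Not every gene so named is described, and a few are not reported here. Asns, Chac1, Nupr1, Pck2, Vldlr, Herpud1, Maff, Me1, Pgd, Mki67, Atf5, Cebpb, Eif2s3y, Ddx3y, Kdm5d, Uty and Pecam1 fell outside this and were chosen after their values were seen. Alternatives were median scaling, quantile normalization, normexp (offset 50) on the spots' median signal, since a mean signal column was not found in the files, with quantile normalization, other filters on dim probes, the mean over probes, the authors' table, a gap of 0.2, slide 1 alone, each array left out, the 4 knockout arrays alone, a trended robust eBayes and the replicate number as a block. The 6 arrays limit the precision of every value.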

Additional observations from a re-analysis of the deposited data

Results flagged for a closer look

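Both knockout lines were set against the same 2 TrspFF arrays, and 101 of the genes named in the report differed between the lines by the limma test (adjusted p under 0.05 over all 16104 genes, of which 43.9% passed). Itgam, Kdm5d, Uty and Pecam1 were not among the genes counted. Values are Trsp-Ins1KO minus Trsp-RIPKO on the log2 scale, from the means of 2 arrays each. The 2 lines lay on different slides, so line and slide cannot be told apart in these values.

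Among genes higher in both lines, Trsp-Ins1KO stood further from TrspFF in Rnf150 2.64, Apoc1 2.18, Slc7a3 2.11, Dusp23 1.98, Nupr1 1.50, Cdh1 1.47, Nr4a1 1.40, Trib3 1.36, Chac1 1.14, Egr1 1.13, Gpx2 1.12, Atf5 1.10 and Cebpb 1.10. The same order held for Serpina7 1.00, Slc6a9 0.95, Cdh5 0.91, Cdkn1a 0.91, Flt1 0.88, Gstp2 0.87, Slc7a5 0.87, Hmox1 0.85, Gstm3 0.78, Anpep 0.77, Tpx2 0.76, Ins2 0.74 and Ins1 0.72. Smaller distances of this kind were those of Sesn2 0.70, Gstm4 0.68, Cplx2 0.66, Epas1 0.60, Psat1 0.57, Snap25 0.55, Cat 0.53, Ern1 0.53, Derl3 0.45, Me1 0.45, Hyou1 0.42, Maff 0.42 and Pmaip1 0.42. To these were added Try4 0.42, Sod3 0.39, Vldlr 0.38, Gpt2 0.37, Asns 0.36, Dgat2 0.36, Pgd 0.36, Rpsa 0.34, Pck2 0.31, Slc7a1 0.26, Mt3 0.25, Nsmf 0.22 and Try5 0.20. Trsp-RIPKO stood further above TrspFF in Dmbt1 -3.18, Fkbp11 -2.50, Cck -2.01, Grifin -1.89, Igfbp4 -0.85, Aldh1a3 -0.84, Lepr -0.43, Cd4 -0.29 and Cd22 -0.21.

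Among genes lower in both lines, those furthest below TrspFF in Trsp-Ins1KO were Ifi27l2a -2.29, Hbb-b2 -1.10, Lpl -1.05, Lyve1 -0.80, Trpm5 -0.72, Ccng1 -0.65 and Selenop -0.62. With them stood Sst -0.51, Nnat -0.49, Dnase1l2 -0.46, Tmsb15l -0.46, Gpx1 -0.42, Gcg -0.34 and Syn2 -0.31. The genes furthest below TrspFF in Trsp-RIPKO, with a positive difference between lines, were Cox6a2 1.77, Ddx3y 1.12, Cish 0.90, Eif2s3y 0.72, Nqo1 0.57, Med25 0.51, Ghrl 0.50 and T2 0.44. Others were Il1b 0.43, Ppy 0.37, Sod2 0.37, G6pdx 0.34, Mt2 0.33, Gch1 0.28 and Mgst3 0.25. Named genes that were not shared by both lines also passed the test: Mki67 -1.63, Trp53 1.13, Scly 0.85, Lrp8 0.74, Txnrd1 0.65, Eefsec 0.64, Atf4 0.63, Dio1 0.61, Herpud1 0.42, Selenoo 0.41 and Txnrd2 0.22. With the 4 knockout arrays alone the test was missed for Cd22, Cd4, Gch1, Hyou1, Lepr and Mgst3. Mt3, Nsmf, Slc7a1, Syn2, Try5 and Txnrd2 missed it there too. Over these genes the limma adjusted p ranged from 0.0546 to 0.112. Without the filter on dim probes Pmaip1 and Trp53 were among the genes that missed it (limma adjusted p = 0.0923 and 0.0526). What sets the distances between lines was not tested.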

How the results depend on the processing

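The largest dependence was on which column of the authors' deposited table belongs to which group. Taken by its own names that table gave 3528 genes higher and 4298 lower in both lines against 3750 and 4360, but with the opposite direction for 166 of the 195 genes named in the report (mean of both lines minus TrspFF, log2), because the values of TrspFF and Trsp-Ins1KO stand exchanged there. With each column taken for the scanner file that it follows, all 195 kept their direction, and the counts were 3752 and 4361. Selenoproteins had Gpx1 0.78, Gpx2 -1.56, Gpx3 0.06, Gpx4 0.49, Msrb1 -0.23, Selenof 0.30, Selenoh 0.52, Selenoi 0.26, Selenok 0.21, Selenom 0.21, Selenon -0.04, Selenop 0.78, Selenot 0.80 and Selenov -0.06. The same list had Selenow 0.00, Sephs2 -0.58 and Txnrd3 0.23. NRF2 pathway had Gstm3 -1.27, Gstm4 -1.18, Gstp2 -1.34, Hmox1 -1.69, Maff -0.55, Me1 -0.59, Nfe2l2 0.28, Pgd -0.45 and Taldo1 0.13. Other antioxidant enzymes had Cat -0.96, Glrx2 0.31, Mgst3 0.05, Msrb3 -0.01, Mt1 0.74, Mt2 0.53, Mt3 -0.48 and Sod3 -0.82. Integrated stress response had Asns -0.37, Atf5 -1.22, Cebpb -1.31, Chac1 -1.46, Eif2ak2 0.19, Eif2ak3 0.04, Eif2ak4 0.12, Gpt2 -0.83, Nupr1 -1.73, Pck2 -0.50, Psat1 -0.93, Sesn2 -1.07, Trib3 -1.78 and Vldlr -0.51. Amino acid transporters had Slc6a9 -1.28, Slc7a1 -0.56, Slc7a3 -2.82 and Slc7a5 -1.08. Aminoacyl-tRNA synthetases had Iars2 -0.54, Rars2 0.41, Tars2 -0.30 and Yars2 0.38. Unfolded protein response had Canx 0.18, Derl3 -0.90, Ern1 -0.66, Hsp90b1 0.22 and Hyou1 -0.76. Heat shock and immediate early genes had Dnaja1 0.39, Egr1 -1.24, Fosb 0.23, Hspb1 0.11, Hsph1 0.04, Nr4a1 -1.62 and Nr4a2 -0.03. Cell cycle had Ccnd2 0.11, Mcm2 -0.28, Mcm3 -0.66, Mcm5 -0.24 and Tpx2 -1.03. Oxidative phosphorylation had Ndufa6 0.39, Ndufb3 0.28, Ndufs8 0.57 and Uqcrq -0.02. Glycolysis and hypoxia had Epas1 -0.79, Hif1a 0.25, Pdk1 -0.29, Pfkfb3 -0.55, Pgk1 0.24 and Vegfa 0.03. Sterol and fatty acid synthesis had Acacb -0.28, Cyp51 0.45, Dgat2 -0.59, Msmo1 0.39 and Scd2 0.23. Ribosomal proteins had Rpl28 0.30, Rplp0 -0.14, Rps19 0.50 and Rpsa -0.42. Beta-cell identity had Gcgr 0.24, Ins1 -0.85, Ins2 -0.80, Nnat 0.91, Slc2a2 0.40 and Trpm5 1.21. Exocytosis and ion channels had Cplx2 -0.99, Rab27a 0.41, Snap25 -0.75 and Stx1a 0.31. Alpha, delta, PP and epsilon cells had Gc -0.12, Gcg 0.45, Ghrl 0.37, Lepr -0.04, Ppy 0.16 and Sst 0.64. Acinar cells had Bhlha15 0.18, Cela3b -1.06, Prss2 -1.0, Reg1 -1.40, Syn2 0.44, Try4 -1.40, Try5 -1.23 and Zg16 -0.56. Of the remaining genes, AU018091 -0.85, Aldh1a3 -0.59, Anpep -1.04, Apoc1 -2.30, Ccng1 0.72, Cd22 -0.30, Cd4 -0.05, Cdh1 -1.69, Cdh5 -1.31, Cdkn1a -1.14, Cebpd 0.63, Dnase1l2 0.97, Dusp23 -2.13 and Fabp4 0.72 were so turned. Then came Flt1 -1.19, Gabpb2 0.15, Gch1 0.06, Ghr 0.30, Grifin -0.03, Hadh -0.22, Hadha 0.02, Hadhb 0.07, Hba-a1 0.33, Hbb-b2 1.51, Hes1 -0.22, Ifi27l2a 2.57, Il1b 0.00 and Iqcf4 -1.20. Beside them stood Lpl 1.28, Lyve1 1.03, Ndufaf3 0.46, Nkg7 -0.07, Nsmf -0.26, Pdk3 0.56, Pmaip1 -0.75, Ppp1r12a -0.27, Prex2 -1.08, Psmb7 0.30, Rab19 0.61, Rhox3c -0.88, Rnf150 -2.78 and Rpl30 0.23. Other values were Rprl2 -1.35, Serpina7 -1.40, Slc16a1 -0.28, Steap3 -0.04, T2 0.38, Ten1 0.63, Tmsb15l 1.06 and Trnau1ap 0.02. By those names Trsp-Ins1KO minus Trsp-RIPKO also turned for 72 of the 106 genes that passed that test or whose value is given, to Anpep -0.54, Apoc1 -0.25, Asns -0.03, Atf5 -0.24, Cat -0.85, Ccng1 0.14, Cdh1 -0.43, Cdh5 -0.79, Cdkn1a -0.46, Cebpb -0.42, Chac1 -0.63, Cplx2 -0.67, Derl3 -0.90, Dgat2 -0.47 and Dnase1l2 1.02. Equally turned were Dusp23 -0.31, Egr1 -0.22, Epas1 -0.38, Ern1 -0.26, Flt1 -0.61, Gcg 0.21, Gpt2 -0.91, Gpx1 0.74, Gpx2 -0.90, Gpx4 0.79, Gstm3 -0.98, Gstm4 -1.01, Gstp2 -0.94, Hbb-b2 0.82 and Herpud1 -0.03. Next were Hmox1 -1.69, Hyou1 -0.68, Ifi27l2a 0.56, Ins1 -0.27, Ins2 -0.12, Lpl 0.46, Lyve1 0.47, Maff -0.26, Mcm3 -1.13, Me1 -0.28, Mt3 -0.48, Nnat 0.83, Nr4a1 -0.44, Nsmf -0.06 and Nupr1 -0.46. Then there were Pck2 -0.39, Pgd -0.17, Pmaip1 -0.66, Psat1 -0.72, Rnf150 -0.29, Rpsa -0.17, Selenop 0.34, Serpina7 -0.79, Sesn2 -0.73, Slc2a2 0.61, Slc6a9 -0.65, Slc7a1 -0.61, Slc7a3 -1.41, Slc7a5 -0.42 and Snap25 -0.39. At the end stood Sod3 -0.86, Sst 0.27, Syn2 0.26, Tmsb15l 1.21, Tpx2 -0.55, Trib3 -0.84, Trp53 -0.11, Trpm5 0.98, Try4 -1.96, Try5 -2.08, Txnrd2 -0.02 and Vldlr -0.26. Scaling on the median gave 1954 higher and 5898 lower genes, and between the lines 6303 genes higher and 1733 lower in Trsp-Ins1KO (3971 and 3102 otherwise). It turned 4 small differences, to Rplp0 -0.01, Selenon -0.03, Steap3 -0.02 and Uqcrq -0.06, normexp background correction with quantile normalization turned Ins1 0.00 and Rplp0 -0.04, and the mean over a gene's probes turned Vegfa 0.05. Between the lines, median scaling turned Gpx4 0.07, Mcm2 0.07, Mcm5 0.06 and Slc2a2 0.07, quantile normalization Ins1 -0.16, normexp Ins1 0.00, and leaving out Trsp-RIPKO replicate 2 Mcm3 -0.02. Under the settings other than the table's own names, 85 to 106 of the 106 differences between lines kept their direction and their side of the threshold. With normexp the shared counts were 3346 and 4206, and with quantile normalization alone 3514 and 4511. Without the filter on dim probes 6830 genes were higher and 4929 lower in both lines, and 8347 were called higher in Trsp-Ins1KO than in Trsp-RIPKO, since more genes entered. A gap of at least 0.2 left 1718 and 1849 members, and Trsp-Ins1KO against TrspFF alone, within slide 1, gave 6611 higher and 6267 lower, since each setting asks more or less of a member. Leaving out 1 array at a time gave 3984 to 4583 higher and 4537 to 5024 lower members, 2964 to 3551 and 2227 to 2719 calls between the lines, and 1919 to 2507 calls among members. A line left with 1 array is there assumed to vary like the other groups. For the median scaling and the other turned genes the cause was not tested. The arrays' signal over background limits the rule to 16104 of 32494 genes.

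Replicate numbers 1 and 2 recur in the titles of all 3 groups, and nothing says that they mark a shared source. Deviations of equal-numbered arrays correlated at 0.126, 0.147 and 0.107 over genes for the 3 pairs of groups. With the number as a replicate block, 4122 genes were called higher and 3196 lower in Trsp-Ins1KO, and 2722 of the members were called against 2631. Under the block the test between lines was missed for Cd22, Cd4, Mgst3, Mt3, Nsmf and Try5 (limma adjusted p = 0.0543, 0.0538, 0.0552, 0.0551, 0.0575 and 0.0639).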
